A study of Homo sapiens with 6 samples.

Results

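Ribosome biogenesis factors are the proteins that transcribe, modify, cut and fold ribosomal RNA in the nucleolus and carry the maturing subunits to the cytoplasm. The set described here holds 36 genes, chosen by symbol from the raw count table: the core proteins of small nucleolar ribonucleoproteins (snoRNPs), abundant nucleolar proteins, factors of the small-subunit processome and of late small-subunit maturation, factors of large-subunit assembly, and RNA polymerase I genes. All 36 symbols matched 1 row each among 60564 rows with an Ensembl identifier, and all 36 were among the 22230 genes with enough counts to be tested.

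The 6 RNA-seq libraries came from HepG2, an established line from a human liver tumour whose genotype is labelled WT. The 3 control libraries are labelled with DMEM, a culture medium, without a time in culture, and no solvent control is named. Another 3 libraries came from cells treated with formononetin, a plant isoflavone, at a labelled dose of 625 (unit written as μm) for 72 h. Cells of both groups were grown in DMEM with fetal calf serum and antibiotics. Nothing in the labels tells whether replicates are separate cultures, and the p-values therefore describe spread among these libraries that may be technical only. Values are CPM, counts per 1000000 counts of a library after TMM scaling, and each log2 fold change compares formononetin with control and stands with its standard error. A gene is said to have risen or fallen where the Benjamini-Hochberg adjusted p of edgeR's quasi-likelihood test, over all 22230 genes, was under 0.05.

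Named-gene counts ran from 30848848 to 45682722 per library, and the 3 formononetin libraries were the deepest. Mitochondrial genes held 3.80 to 3.92% of counts in control and 2.81 to 3.57% in formononetin libraries. Hepatocyte markers were abundant, with summed levels of 47333 to 48705 CPM in control and 39121 to 40251 CPM in formononetin libraries. Of the 9 markers 7 fell and 1 rose, where 8.71% of all tested genes fell and 12.0% rose. Of the markers of other cell types, PTPRC and CD3E of leukocytes, COL1A2, COL3A1, DCN and LUM of fibroblasts and TEK of endothelium had no counts in any library. The fibroblast list summed to 12.9 to 15.04 CPM in control and 3.81 to 4.58 CPM in formononetin libraries, nearly all from PDGFRB. The endothelial list summed to 22.1 to 25.6 and 23.9 to 28.1 CPM, and the immune list, nearly all LYZ, to 1199 to 1292 and 975 to 1012 CPM. In bulk RNA, fewer cells of a kind and less RNA per cell cannot be told apart.

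Ribosome assembly begins when RNA polymerase I, guided by UBTF and RRN3, copies the ribosomal DNA into a long precursor. Box C/D snoRNPs (with the methylase fibrillarin, FBL) and box H/ACA snoRNPs (with the pseudouridine synthase dyskerin, DKC1) modify that precursor, and the processome folds and cuts the part that becomes the small subunit. The PeBoW complex of PES1, BOP1 and WDR12 acts on the part that becomes the large subunit. Many of these genes are known targets of MYC, whose dimers bind the E-box CACGTG.

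The E-box is shown because it is a feature of these promoters that did not choose the members. RefSeq promoter windows (GRCh38.p14, 250 bases before to 50 bases after a gene's start) were found for 31 of the 36 genes. The palindrome CACGTG, which reads the same on both strands, stood in a window of 13 of these 31 (41.9%), against 11.9% of 12219 tested genes with a window and 8.8% of all 27305 genes with a window. The lines below give the motif in capitals with up to 10 bases on each side, on the strand of the gene.
FBL, chr19:39846358-39846383, minus strand: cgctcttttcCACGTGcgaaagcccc
UTP20, chr12:101280085-101280110, plus strand: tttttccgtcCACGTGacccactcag
UTP4, chr16:69132623-69132648, plus strand: agcgcgcgcgCACGTGgggccggggc
NOP10, chr15:34343132-34343157, minus strand: aattgacgaaCACGTGacgcggtcgg
UTP18, chr17:51260540-51260565, plus strand: agcgaggttcCACGTGagcgcctgcg
UTP14A, chrX:129905914-129905938, plus strand: accttgggcCACGTGgaaaccaggg
The other 7 genes with the motif were WDR43, RRP9, GAR1, BYSL, LTV1, NOP2 and PES1. NOP10 and UTP18 held it at 2 places each. The 13 genes with the motif had a median log2 fold change of 0.04 and none was called. The 18 genes without it had a median of 0.15 with 7 called, and the difference between these small groups was not tested. Over all tested genes with a window, 25.8% of 1458 with the motif and 27.0% of 10761 without it were called, at medians of 0.04 and 0.03. A match is a description of letters, and the windows of 5 genes (BOP1, RRS1, RRP12, NOP58 and NOLC1) were not used here.

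Transcripts of ribosome biogenesis factors differed little between formononetin and control cells. Of the 36 genes 7 rose (WDR12, UTP15, NHP2, NOLC1, RRN3, NOC2L and BOP1) and 2 fell (UTP14C and NOB1), while 27 did not pass the test. The rises amount to 19.4% of the set, where 12.0% of all tested genes rose, and the falls to 5.56%, where 8.71% of all tested genes fell. Without UTP14C and NOP2, which share most of their exon bases with other rows, 7 of 34 rose (20.6%) and 1 fell (2.94%). Among the 10406 well expressed genes (mean log2 CPM at least 3, a level that 34 of the 36 reach), 21.6% rose and 12.8% fell, so the share of rises lies near that of comparably expressed genes. Under upper quartile scaling 6 members rose and 6 fell, with 8.16% of all genes raised and 12.3% lowered, and under library totals alone 11 rose, the added ones being UTP20, TSR1, POLR1A and UBTF. The median log2 fold change was 0.10, against -0.01 for all tested genes and 0.05 for the well expressed ones. Under upper quartile scaling it was 0.02, with the median of all tested genes at -0.09.

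Apart from UTP14C, most of whose exon bases are shared with another gene, the log2 fold changes ran from -0.42 for NOB1 to 0.43 for WDR12. Of the 36 values, 72.2% lay between -0.25 and 0.25, against 49.7% of all tested genes and 58.7% of the well expressed ones. The summed level of the 36 genes was 3411, 3620.5 and 3588 CPM in control replicates 1 to 3 and 3558, 3609 and 3617 CPM in formononetin replicates 1 to 3. These sums overlap between the groups. CPM did not overlap between the groups for 21 of the 36 genes (58.3%), with formononetin higher for 16 (44.4%) and lower for 5 (13.9%). Over all tested genes that share was 39.4% (20.8% higher and 18.7% lower), and 54.3% for the well expressed ones. The last share was not split by direction, so the 44.4% has no background of comparably expressed genes here.

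**Figure D1:**
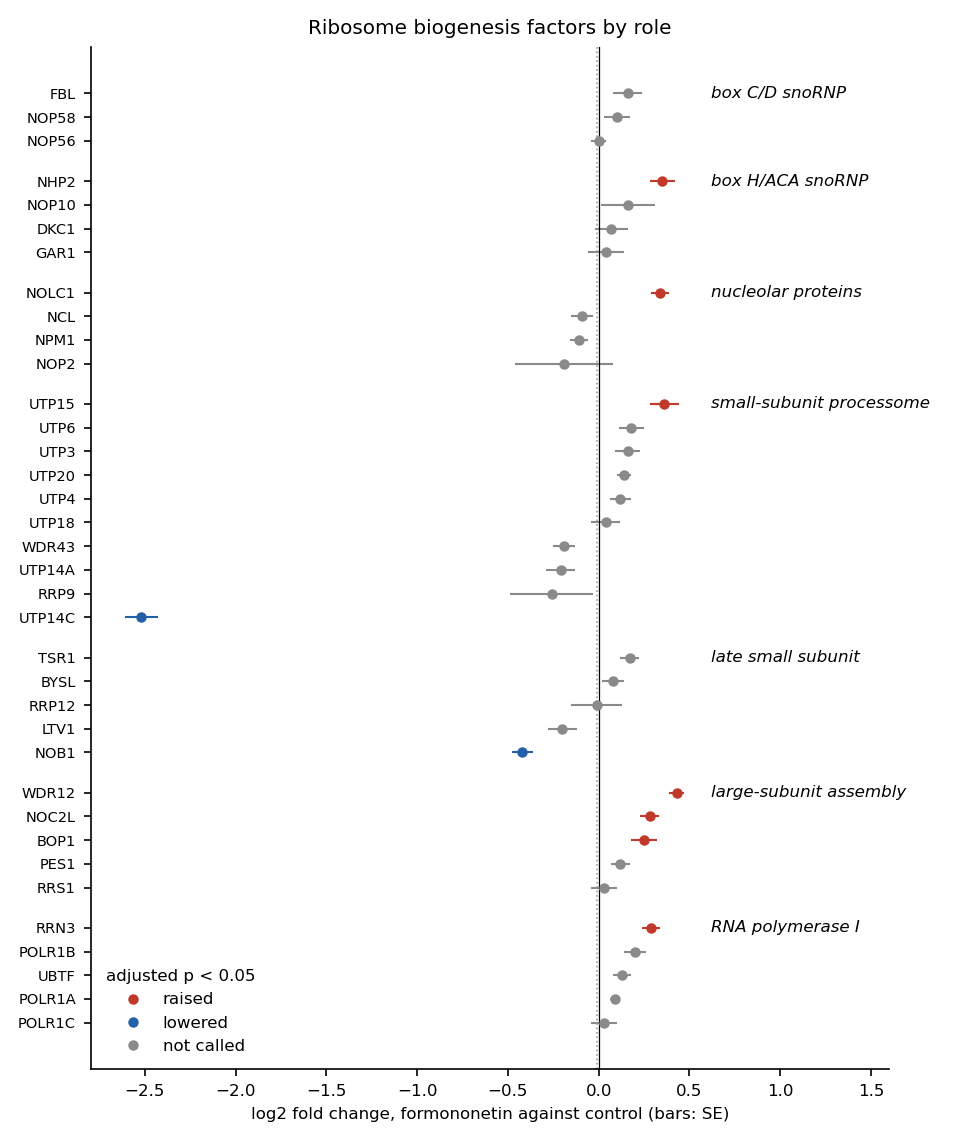
Log2 fold change of each of the 36 genes, formononetin against control, with its standard error, grouped by role and coloured by call; the dotted line is the median of all tested genes (-0.01). UTP14C at -2.52 stands far left of all others, which lie between -0.42 and 0.43.

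The core proteins of box C/D snoRNPs, which place methyl groups on ribosomal RNA, showed no called change. FBL, the methylase itself, was at 117, 116 and 117 CPM in control replicates 1 to 3 and at 115, 142 and 133 CPM in formononetin replicates 1 to 3. Formononetin replicate 1 lay below all controls and the other formononetin libraries above them, and FBL was not called (0.16 ± 0.08, adjusted p = 0.212). Without formononetin replicate 1 it was called at 0.23 (adjusted p = 0.0332). NOP56, a scaffold of the particle, gave the steadiest values of the set, from 158 to 163 CPM over all 6 libraries. Its partner NOP58 ran from 54.1 to 65.6 CPM and changed by 0.10 ± 0.07 (adjusted p = 0.402).

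Of the 4 core proteins of box H/ACA snoRNPs, which convert uridine to pseudouridine and are also part of telomerase, NHP2 rose. That is 25% of a small list, against 12.0% of all tested genes and 21.6% of the well expressed ones. NHP2 was at 31.8, 29.3 and 32.6 CPM in control and 37.8, 40.6 and 41.2 CPM in formononetin libraries, so the groups did not overlap (0.35 ± 0.07, adjusted p = 0.0107). It stayed called in all 20 alternative settings, with adjusted p up to 0.0466. Of its exon bases 27.4% lie opposite RMND5B on the other strand, and whether reads were counted by strand is not given in the sources used here. The catalytic subunit DKC1 (0.07 ± 0.09), GAR1 (0.04 ± 0.10) and NOP10 (0.16 ± 0.15) were not called, with adjusted p from 0.525 to 0.823. NOP10 spread from 30.5 to 46.9 CPM among formononetin libraries, which enclosed the controls at 32.6 to 38.3 CPM.

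Of the 4 nucleolar proteins 1 rose (NOLC1, 25% of a small list) and none fell. Of all tested genes 12.0% rose and 8.71% fell, and of the well expressed ones 21.6% rose and 12.8% fell. NPM1 and NCL had the highest levels per exon length of the 36 genes. NPM1, a histone and ribosome chaperone that shuttles between nucleolus and cytoplasm, stood at 180 CPM per kb of merged exons in control libraries, and NCL (nucleolin), an RNA-binding chaperone of early precursors, at 71.1 CPM per kb. NOP10 (63.8) and FBL (53.7 CPM per kb) came next. At the other end RRP12 had 0.350 and RRP9 0.5001 CPM per kb. NPM1 was at 653, 723 and 688 CPM in control and 643, 634 and 633 CPM in formononetin libraries. All formononetin libraries lay below all controls, yet the difference was not called (-0.11 ± 0.05, adjusted p = 0.133), except under upper quartile scaling (adjusted p = 0.0243). Transcripts of other genes, most of all the pseudogene NPM1P27, hold 18.9% of the 50-base words of NPM1, so reads may be split among them. NCL was at 453, 497 and 527 CPM in control and 445, 453 and 488 CPM in formononetin libraries, which overlap (-0.09 ± 0.06, adjusted p = 0.373).

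NOLC1, a phosphoprotein that binds snoRNPs and links the nucleolus with Cajal bodies, rose. It was at 84.1, 83.6 and 85.5 CPM in control and 102, 106 and 112 CPM in the formononetin group (0.34 ± 0.05, adjusted p = 0.00345, chromosome 10, 102152176 to 102163871, GRCh38). The controls differed by less than 2 CPM and all formononetin libraries lay above them. NOLC1 shared no 50-base word with another gene and was called in all 20 alternatives.

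NOP2, which methylates a cytosine of large-subunit RNA, could not be assessed from its own row. It was at 77.1, 86.5 and 59.5 CPM in control and 79.0, 78.3 and 38.9 CPM in the formononetin group (-0.19 ± 0.27, adjusted p = 0.685). A gene model on the same strand (ENSG00000285238) runs from the CHD4 gene into NOP2 and shares 54.4% of the exon bases of NOP2. This model had no counts in any control library, 1 count in formononetin replicate 1, none in replicate 2 and 7718 counts (170.2 CPM) in replicate 3. CHD4, a chromatin remodeller at 340.0 to 357 CPM in the other 5 libraries, stood at 210 CPM in formononetin replicate 3. The sum of NOP2, CHD4 and the model was 428, 437 and 399 CPM in control and 433, 435 and 419 CPM in formononetin libraries. That sum in formononetin replicate 3 lies within the range of the controls, and its log2 fold change was 0.02 ± 0.05 (adjusted p = 0.756, sum chosen after the data were seen). Without formononetin replicate 3 the value of NOP2 was 0.07, and summed with the model alone it was 0.72 (adjusted p = 0.240).

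The small-subunit processome, the large particle that forms on the nascent precursor, had 1 rise and 1 fall among 10 members (10.0% each). Of all tested genes 12.0% rose and 8.71% fell, and of the well expressed ones 21.6% rose and 12.8% fell. UTP15, of the UTP-A (t-UTP) complex that binds first, was at 26.1, 25.6 and 30.0 CPM in control and 35.6, 33.8 and 35.4 CPM in the formononetin group (0.36 ± 0.08, adjusted p = 0.0168). The groups did not overlap, but removing formononetin replicate 1 or 3, or control replicate 1 or 2, ended the call (adjusted p up to 0.0626). UTP4 and WDR43, also of that complex, changed by 0.12 ± 0.06 and -0.19 ± 0.06 and were not called. WDR43 was lower in all formononetin libraries (133 to 140.4 CPM) than in any control (145 to 169 CPM), with adjusted p = 0.0676. It was called without control replicate 1 (adjusted p = 0.0410), under upper quartile scaling and with a filter of 1 CPM in 3 libraries (lowest adjusted p = 0.0205). UTP20, a very large scaffold protein, ran from 130 to 134 CPM in control and from 142 to 150.2 CPM in formononetin libraries and missed the threshold (0.14 ± 0.04, adjusted p = 0.0536). It was called with library totals alone, centred on the median gene, and with unnamed assembled loci included (lowest adjusted p = 0.0321). UTP6 (0.18 ± 0.07), UTP3 (0.16 ± 0.07) and UTP18 (0.04 ± 0.08) were not called.

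RRP9, which binds the U3 snoRNA, had under 1 CPM in every library (0.545 to 0.822 CPM, at most 35 counts), and RRP12, an export factor, had 2.68 to 3.29 CPM. Both were far below the other 34 genes, and no difference was detectable at this depth (-0.26 ± 0.23 and -0.01 ± 0.14). The sources used here do not say how reads were assigned to rows, and these low values may not reflect the expression of the genes. RRP1, a large-subunit factor named here after its values were seen, had no counts in control libraries and at most 0.198 CPM in formononetin libraries.

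UTP14C shows the largest difference of the set, and it cannot be read apart from ALG11. UTP14A, on the X chromosome, and UTP14C, on chromosome 13, encode near copies of a processome protein. UTP14C holds its whole coding sequence in 1 exon, whereas UTP14A has 15 exons. The coding sequences (2316 bases in UTP14A-201 and 2301 in UTP14C-201) are 94.0% identical in a global alignment of the GENCODE 29 transcripts. The first 120 aligned bases without a gap are printed to show how alike the copies are, with the 8 differing bases in capitals.
UTP14A, chrX:129907369-129907442 and chrX:129908060-129908105, exons 2 and 3, plus strand: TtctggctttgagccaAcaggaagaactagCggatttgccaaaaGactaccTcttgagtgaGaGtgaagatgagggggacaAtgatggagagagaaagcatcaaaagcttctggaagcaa
UTP14C, chr13:52028830-52028949, exon 2, plus strand: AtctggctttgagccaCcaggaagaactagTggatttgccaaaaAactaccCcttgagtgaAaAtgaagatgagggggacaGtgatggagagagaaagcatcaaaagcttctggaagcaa
Even so, 7.1% of the 50-base words of UTP14A recur in transcripts of other genes. For UTP14C that share is 74.0%, nearly all through ALG11 (73.9%), a mannosyltransferase gene of the same strand. All 2301 coding bases of UTP14C lie in exons annotated to ALG11, and 4100 of its 5529 exon bases are shared with it.

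**Figure D2:**
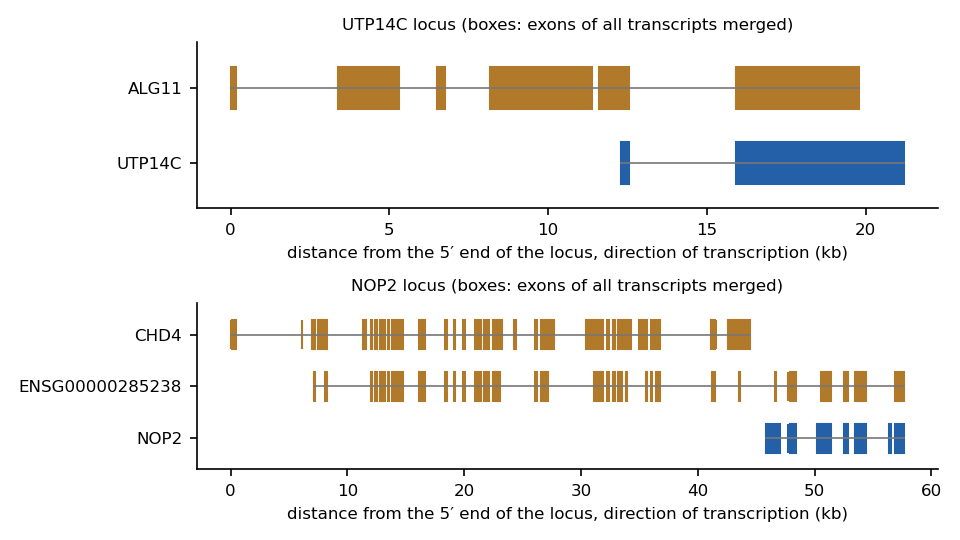
Merged exons of ALG11 and UTP14C (top) and of CHD4, the gene model ENSG00000285238 and NOP2 (bottom), by distance in kb from the 5′ end of each locus in the direction of transcription. Both exons of UTP14C overlap ALG11, and the model covers exons of CHD4 and of NOP2.

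UTP14C was at 35.5, 36.7 and 31.997 CPM in control and 6.34, 5.71 and 6.04 CPM in formononetin libraries, with no overlap (-2.52 ± 0.09, adjusted p = 1.16e-05, chromosome 13, 52024691 to 52033600). ALG11 was at 28.3, 32.01 and 34.9 CPM in control and 49.1, 25.9 and 54.4 CPM with formononetin, a difference not called (0.44 ± 0.25, adjusted p = 0.268). UTP14C thus held 47.8 to 55.6% of the 2 rows together in control and 9.99 to 18.1% in formononetin libraries. Their sum was 63.8, 68.7 and 66.9 CPM in control and 55.4, 31.6 and 60.5 CPM in formononetin libraries. The sum was lower in all formononetin libraries but was not called (-0.43 ± 0.21, adjusted p = 0.205), and formononetin replicate 2 lay far below the rest. Over the other 19 alternatives the adjusted p of UTP14C was at most 0.00128. UTP14A, the copy on another chromosome, was at 29.6, 31.8 and 31.7 CPM in control and 24.7, 28.9 and 26.7 CPM in formononetin libraries. The groups of UTP14A did not overlap, and it was not called (-0.21 ± 0.08, adjusted p = 0.0954) except under upper quartile scaling (adjusted p = 0.0366).

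**Figure D3:**
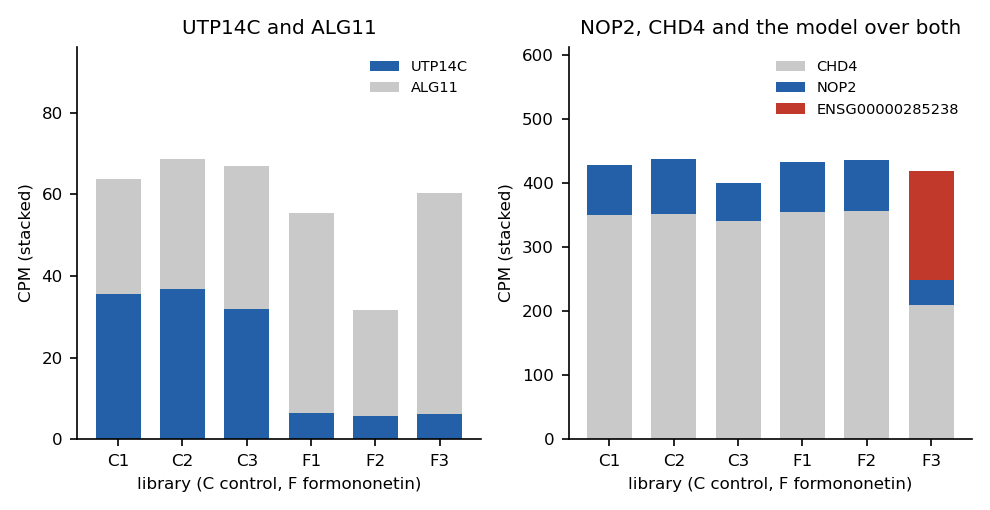
Stacked CPM in each library for UTP14C with ALG11 (left) and for CHD4, NOP2 and the gene model over both (right), C for control and F for formononetin replicates. UTP14C is small in all 3 formononetin libraries, and the model reaches 170.2 CPM in formononetin replicate 3 while the stacked total there (419 CPM) stays within the range of the controls (399 to 437 CPM).

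Late small-subunit maturation held the other fall, 1 of 5 genes (20%), where 8.71% of all tested genes and 12.8% of the well expressed ones fell. NOB1, the endonuclease that makes the last cut at the 3′ end of small-subunit RNA in the cytoplasm, was at 83.2, 93.4 and 90.7 CPM in control and 67.6, 65.7 and 67.1 CPM in formononetin libraries. The formononetin libraries lay within 2 CPM of each other and below every control (-0.42 ± 0.06, adjusted p = 0.00251, chromosome 16, 69741867 to 69754940). NOB1 was called in all 20 alternatives, with adjusted p up to 0.0156. Of its exon bases 20.2% lie opposite NQO1-DT on the other strand, a row with 148 counts in all 6 libraries together, against at least 2509 counts of NOB1 in each. The other factors of this step were not called: TSR1, a GTPase-like assembly factor (0.17 ± 0.05, adjusted p = 0.0666), LTV1 (-0.20 ± 0.08, adjusted p = 0.115) and BYSL (0.08 ± 0.06, adjusted p = 0.437). TSR1 was nonetheless higher in all formononetin libraries (98.2 to 103 CPM) than in any control (84.2 to 93.6 CPM). Of its exon bases 20.7% lie opposite SRR on the other strand. LTV1 was called under upper quartile scaling (adjusted p = 0.0421). Transcripts of other genes hold 30.4% of the 50-base words of LTV1, so its reads may be split among them.

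Of 5 large-subunit assembly factors 3 rose (60% of a small list, against 12.0% of all tested genes and 21.6% of the well expressed ones) and none fell, at a list median of 0.25. The number raised was 2 in the 9 of 20 alternatives in which BOP1 lost its call. WDR12, a WD-repeat subunit of PeBoW, gave the largest rise of the 36 genes. It was at 80.0, 81.6 and 80.6 CPM in control and 107.8, 108 and 110.4 CPM in formononetin libraries, so that the libraries of a group lay within 3 CPM of each other and the groups far apart (0.43 ± 0.04, adjusted p = 0.000691, chromosome 2, 202874782 to 203014798). BOP1, of the same complex, was at 52.0, 49.7 and 51.9 CPM in control and 55.6, 65.9 and 61.3 CPM in the formononetin group (0.25 ± 0.07, adjusted p = 0.0455). BOP1 lost its call without control replicate 1, 2 or 3, without formononetin replicate 2 or 3, and in 4 other settings (voom, upper quartile scaling, no low-count filter and the replicate block; adjusted p up to 0.138). PES1, the third PeBoW subunit, was at 89.1 to 92.4 CPM in control and 93.0 to 104.5 CPM with formononetin, a difference not called (0.12 ± 0.05, adjusted p = 0.172). All 3 PeBoW genes thus had every formononetin library above every control, at different distances. So did 20.8% of all tested genes, and 54.3% of the well expressed ones did not overlap in either direction.

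NOC2L, which travels with precursors of the large subunit and also binds histones, was at 80.2, 85.7 and 87.7 CPM in control and 102, 104 and 101 CPM in formononetin libraries. It rose (0.28 ± 0.05, adjusted p = 0.00819) and was called in all 20 alternatives. RRS1, needed to bring the 5S particle to the large subunit, was at 21.9 to 24.6 CPM over all 6 libraries and was not called (0.03 ± 0.07).

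All 5 RNA polymerase I genes had log2 fold changes above 0, and 1 of them was called. The well expressed genes had a median of 0.05, so most of them also lay above 0, and 21.6% of them rose. The share raised among all tested genes was 12.0%. POLR1C was at -0.05 under upper quartile scaling, and at -0.01 to -0.00 without control replicate 3 or without formononetin replicate 1 or 3. RRN3 (TIF-IA), the factor that makes the polymerase competent to start and a known point of control by growth signals, was at 66.0, 71.8 and 69.5 CPM in control and 86.6, 82.5 and 83.6 CPM in formononetin libraries. It rose with no overlap of the groups (0.29 ± 0.05, adjusted p = 0.00832) and was called in all 20 alternatives. Of its 50-base words 25% recur in other genes, most of all in the pseudogene RRN3P2, so its level is uncertain. POLR1A, the largest subunit, was at 310.2, 309 and 313 CPM in control and 330.4, 333 and 333 CPM in formononetin libraries. The spread within groups was under 5 CPM and the groups stood apart, but the difference was small and was not called (0.09 ± 0.03, adjusted p = 0.0900). POLR1B, the second largest subunit (0.20 ± 0.06, adjusted p = 0.0668), and UBTF, which binds ribosomal DNA along its length (0.13 ± 0.05, adjusted p = 0.103), were higher in every formononetin library than in any control without being called. POLR1B was called without formononetin replicate 3 (adjusted p = 0.0492). POLR1C, shared with RNA polymerase III, overlapped between groups (0.03 ± 0.07).

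**Figure D4:**
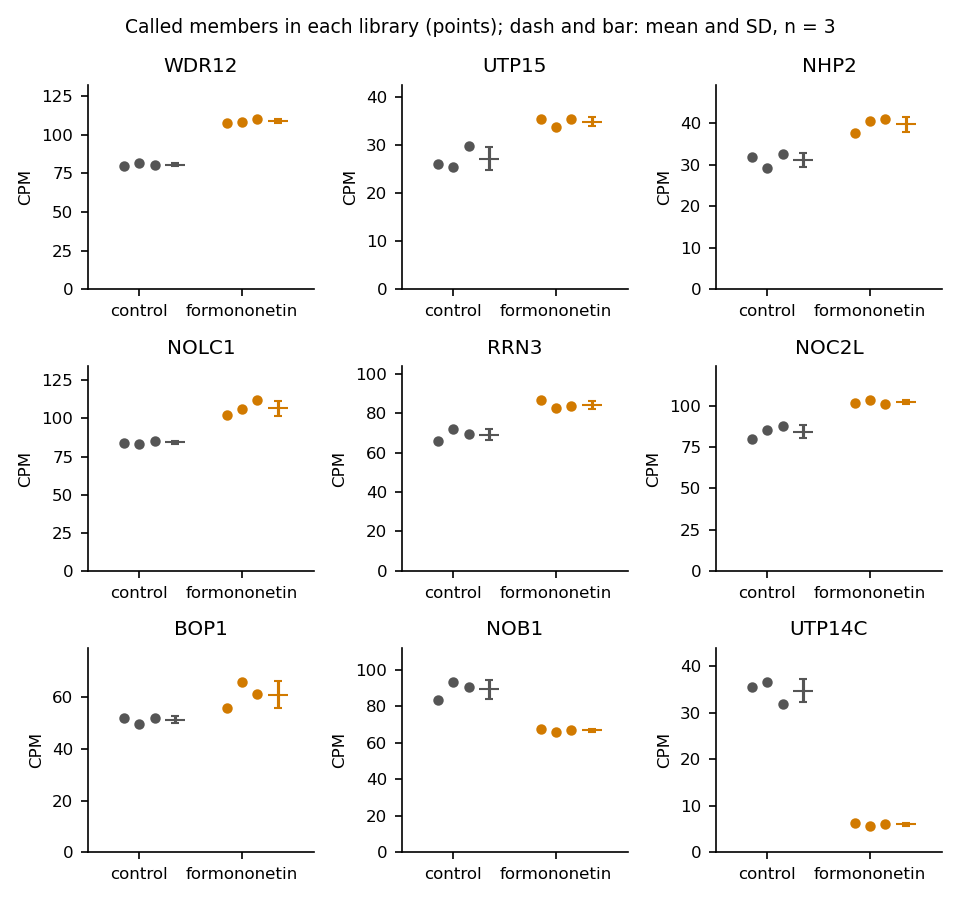
CPM in each library of the 9 called genes (points, axes from 0), with the mean and SD of each group (n = 3) as dash and bar. Formononetin libraries lie above all controls for WDR12, UTP15, NHP2, NOLC1, RRN3, NOC2L and BOP1 and below them for NOB1 and UTP14C.

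The rest of the pathway was taken from lists written out by role. Of 139 further ribosome assembly genes, 138 were tested, 20 rose (14.5%, against 12.0% of all tested genes) and 9 fell (6.52%, against 8.71%), with a median log2 fold change of 0.06. The number raised was 6 to 13 when any 1 library was left out, 6 of them without formononetin replicate 3, and 7 under upper quartile scaling. The number lowered was 5 without control replicate 3 or formononetin replicate 3, 3 without formononetin replicate 2, and 15 under upper quartile scaling.

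Further small-subunit factors had 10 of 45 raised (22.2%, against 12.0% of all tested genes and 21.6% of the well expressed ones) and none lowered, at a median of 0.12. The number raised was 3 without formononetin replicate 1 or without 3, 4 without formononetin replicate 2 and 6 without control replicate 1. Under upper quartile scaling 3 were raised and 2 lowered, at a median of 0.04. DIMT1, which dimethylates adenines near the end of small-subunit RNA, went from 18.6 ± 0.533 to 24.7 ± 1.36 CPM (SD, n = 3; 0.41 ± 0.07, adjusted p = 0.00782 in edgeR). DCAF13, a processome protein, went from 33.7 ± 2.16 to 43.9 ± 1.59 CPM (0.38 ± 0.07, adjusted p = 0.00792 in edgeR). DIMT1 and DCAF13 were the 2 of the 10 that were called in all 20 alternatives.

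Further large-subunit factors had 4 of 53 tested genes raised (7.55%) and 5 lowered (9.43%), at a median of -0.02. Of all tested genes 12.0% rose and 8.71% fell, and of the well expressed ones 21.6% rose and 12.8% fell. Without formononetin replicate 2 the numbers raised and lowered in the list were 1 and 1, and without formononetin replicate 3 they were 1 and 2. Without control replicate 1, 2 or 3 from 2 to 3 genes were lowered. Upper quartile scaling gave 2 raised and 8 lowered, and library totals alone 9 raised and 1 lowered. EBNA1BP2, a partner of early large-subunit particles, changed by 0.43 ± 0.05 and NVL, an AAA ATPase that remodels them, by 0.36 ± 0.08, a call that NVL lost on removal of formononetin replicate 2 or of 3 (highest adjusted p = 0.0615). NSA2 fell from 48.3 ± 1.75 to 37.9 ± 1.21 CPM (-0.35 ± 0.06, adjusted p = 0.00530 in edgeR, n = 3). NOP53 was called at -0.33 ± 0.09, a call lost in 9 of 20 alternatives, including the removal of control replicate 1 or 3 or of any formononetin replicate (adjusted p up to 0.127).

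Further RNA polymerase I genes had 2 of 12 raised and 3 lowered, at a median of 0.02. For comparison, 12.0% of all tested genes rose and 8.71% fell. Among the well expressed genes 21.6% rose and 12.8% fell, and whether this short list differs from them was not tested. POLR1D, the small subunit that pairs with POLR1C, fell from 107.4 ± 3.65 to 82.4 ± 4.07 CPM (-0.38 ± 0.05, adjusted p = 0.00316 in edgeR, n = 3), and TAF1D, of the promoter selectivity factor SL1, changed by -0.37 ± 0.07. Both were called in all 20 alternatives. POLR1F (0.36 ± 0.09) and POLR1E (0.25 ± 0.07) were raised, and each call was lost under upper quartile scaling and without any 1 of the controls or formononetin replicate 2 or 3 (highest adjusted p = 0.129). POLR1E was also lost without formononetin replicate 1.

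Of 13 snoRNP assembly factors 2 rose (15.4%, against 12.0% of all tested genes and 21.6% of the well expressed ones) and none fell (median 0.09). The 2 raised were RUVBL2, an ATPase of the R2TP chaperone complex (0.28 ± 0.05), and TCOF1 (treacle), a nucleolar scaffold of ribosomal DNA transcription (0.26 ± 0.06). TCOF1 lost its call under upper quartile scaling and on removing formononetin replicate 1 or 3, or control replicate 2 or 3 (adjusted p up to 0.0837). Of 15 genes of the nuclear exosome and of ribosomal RNA exonucleases 2 rose (13.3%) and 1 fell (6.67%), at a median of 0.09. Over all tested genes 12.0% rose and 8.71% fell, and over the well expressed ones 21.6% rose and 12.8% fell. MPHOSPH6, an exosome cofactor for 5.8S RNA, went from 9.39 ± 0.712 to 13.8 ± 0.378 CPM (0.56 ± 0.09, adjusted p = 0.00559 in edgeR, n = 3). EXOSC8 changed by 0.32 ± 0.08, and it lost the call under upper quartile scaling and on removing any formononetin replicate, or control replicate 2 or 3 (adjusted p up to 0.0748). XRN2, the nuclear 5′ to 3′ exonuclease, was called at -0.20 ± 0.04 and lost that call on removing formononetin replicate 2, or control replicate 3 (adjusted p up to 0.0559).

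**Figure D5:**
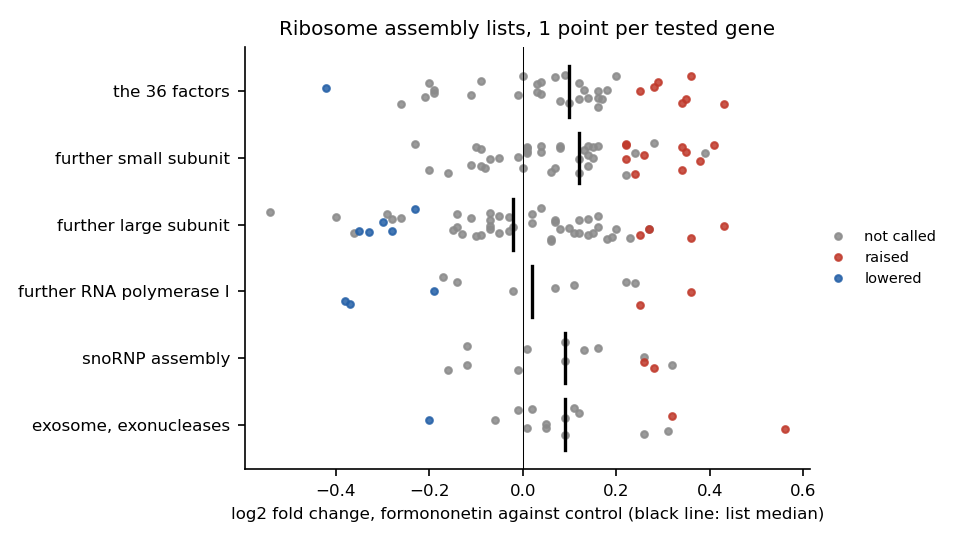
Log2 fold change of each tested gene in 6 lists (points, coloured by call, vertical position within a list arbitrary), with the list median as a black line. UTP14C (-2.52) lies outside the axis; medians run from -0.02 for further large-subunit factors to 0.12 for further small-subunit factors.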

How the data were processed

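The authors deposited raw counts per gene for 6 libraries made with a stranded mRNA kit, per the labels' protocols. The submitters' processing notes name GRCh38, STAR 2.5.3a and StringTie 1.3.1c with no roles. The sources used here do not name the counting tool, the strand setting or the gene annotation. Of 62729 rows, 2165 are unnamed assembled loci (3.82 to 5.62% of counts) and were left out. Symbols came from a table that matched 60295 of 60564 identifiers, coordinates and exon lengths from GENCODE 29 (GRCh38), promoters from RefSeq (GRCh38.p14).

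Genes passing filterByExpr (22230) were scaled with TMM and tested with edgeR 4.0.16 in R 4.3.3 (quasi-likelihood F test, group as sole term, two-sided, 3 against 3, Benjamini-Hochberg, threshold 0.05). Standard errors are log2 fold change over the root of the F statistic, and the common biological coefficient of variation came to 0.157. Chi-square per degree of freedom was 13.5 to 34.6 between replicates, so no pair agreed within sampling noise. Tested on simulated data of 21766 genes for this comparison, the fit recovered 50 of 50 genes changed by 2 (log2), 41 of 50 by 1, 41 of 50 by -1 and 23 of 50 by 0.5, and called 9 of 21566 unchanged genes. Changes smaller than 0.5 were not simulated, so detection of changes as small as those of most members was not measured.

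Named were all 36 members and, from each further list, up to 2 called genes per direction (mean log2 CPM at least 3), by largest change. The members and lists were chosen with earlier results of these data known. Alternatives used DESeq2 1.42.0, limma 3.58.1 (voom), other scalings and filters, removal of mitochondrial and the 10 largest genes, the unnamed loci, a replicate block, each library left out and summed overlapping genes. The sums over NOP2 were added after the data were seen. Figures used matplotlib 3.10.9.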

Additional observations from a re-analysis of the deposited data

Results flagged for a closer look

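The gene model ENSG00000285238, which runs from CHD4 into NOP2, fell below the count filter and entered no test. It held 170.2 CPM in formononetin replicate 3, against no counts in the 3 control libraries, none in formononetin replicate 2 and 1 count in formononetin replicate 1. This was singled out because a signal stood in 1 library of a row outside the comparisons. In the same library NOP2 was at 38.9 CPM and CHD4 at 210 CPM, the lowest values of both over the 6 libraries, and the sum of the 3 rows was 419 CPM, within the 399 to 437 CPM of the controls.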

How the results depend on the processing

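Over 20 alternatives the 36 genes gave 719 values, of which 664 kept both direction and call, 14 lost the call, 14 gained one and 27 changed sign, none of them in a called gene. The number raised (7) was 11 with library totals alone and 5 to 7 with 1 library left out. The number lowered (2) was 6 under upper quartile scaling, 1 with UTP14C and ALG11 summed, and 2 to 3 with 1 library left out. The median of 0.10 was 0.02 under upper quartile scaling, 0.14 with library totals alone, 0.12 without a low-count filter and 0.07 to 0.12 with 1 library left out. Among the 139 further genes, 20 raised and 9 lowered became 7 and 15 under upper quartile scaling, 4 lowered with library totals alone, 4 lowered without a low-count filter, and 6 to 13 raised and 3 to 7 lowered with 1 library left out. Over all genes 4596 calls became 3049 to 3667 with 1 library left out. The cause of these shifts was not tested.

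Same-numbered libraries did not deviate together (correlation of deviations from group means 0.00, 0.01 and -0.02). With 3 libraries per group, these values cannot tell whether same-numbered libraries were handled together. With the replicate number as a block, 3283 genes were called over all, 6 members raised and 2 lowered, and 12 further genes raised and 5 lowered.

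Sign changes, all of uncalled values, were under upper quartile scaling DKC1 -0.01, GAR1 -0.04, UTP18 -0.04, RRS1 -0.05 and POLR1C -0.05, and RRP12 0.03 with library totals, 0.01 without a filter and 0.00 with unnamed loci. NOP56, at -0.00, was 0.04 with library totals, 0.01 centred on the median gene, 0.02 without a filter, 0.01 with unnamed loci and 0.01 without formononetin replicate 2. NOP2 was 0.72 summed with its overlapping model and 0.02 with CHD4 added. With 1 library left out, values ran from -0.01 to 0.16 for DKC1, -0.05 to 0.13 for GAR1, -0.35 to 0.07 for NOP2, -0.09 to 0.06 for RRP12 and -0.01 to 0.08 for RRS1. The changes of sign were DKC1 -0.01 and GAR1 -0.05 without control replicate 1, and GAR1 -0.01, RRS1 -0.01 and NOP2 0.07 without formononetin replicate 3. Likewise UTP18 reached -0.04 and RRP12 0.04 without formononetin replicate 2, RRP12 0.06 without control replicate 2, and POLR1C -0.01 without formononetin replicate 1. POLR1C was at -0.00 without control replicate 3 or formononetin replicate 3, and RRS1 at -0.00 without formononetin replicate 1. At 0.545 to 0.822 CPM for RRP9, depth limits what could be detected.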
